A study of Rattus norvegicus with 8 samples.

Results

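The collagen, laminin and integrin genes measured here are those whose rat symbol is Col, a number, a and a number (collagen chains), Lama, Lamb or Lamc (laminin chains), or Itga or Itgb with a number or letter (integrin subunits), except *Itgam*, *Itgax* and *Itgb2*. They came to 40 of the 15159 genes that could be named on the arrays, 18 for collagen chains, 7 for laminin chains and 15 for integrin subunits, each read by its brightest probe. The RefSeq annotation of the rat holds 78 protein-coding genes of this kind, and the other 38 (26 collagen, 4 laminin and 8 integrin genes), among them *Col4a2*, *Col6a1*, *Col6a3*, *Lama2*, *Lama4*, *Lamb1*, *Itga3*, *Itga6*, *Itgav* and *Itgb8*, were not analysed here.

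Adult extracellular matrix and its receptors are built from these families. Fibrillar collagens (types I, II, III, V and XI) assemble into tensile fibrils, which in the brain lie mainly in the meninges and around larger vessels. Type IV collagen and the laminins, each laminin being a trimer of an alpha, a beta and a gamma chain, form the sheets of basement membranes, which in the brain surround vessels and line the pial surface. Integrins are dimers of an alpha and a beta subunit that bind collagen, laminin, fibronectin or counter-receptors on other cells, and some of them (the subunits *Itgal*, *Itgad*, *Itgae*, *Itga4* and *Itgb7*) are known chiefly from leukocytes. Genes for laminin B1 and type IV collagen are textbook examples of retinoic acid (RA) induction in cultured teratocarcinoma cells.

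Male F344N rats were kept in short photoperiod (SD, 8 h light and 16 h dark) and given a cannula in the third ventricle. Its placement was checked by the drinking response to angiotensin. Rats that responded were injected 7 days after that check with 5 μl of all-*trans* RA or vehicle. Both groups had undergone the surgery and the check. The labels give the RA as 1e-05 M and the vehicle as saline, whereas the methods give 1e-04 M and 10% DMSO in 0.9% saline. Blocks of hypothalamus that included the arcuate nuclei were taken 24 hrs later from 4 RA-injected and 4 vehicle-injected rats, whose age was not given in the sources used here. RNA was labelled with Cy3 or Cy5 and hybridised to 8 two-colour Agilent arrays, each holding an RA and a vehicle sample, with RA in Cy5 on arrays 1, 3, 6 and 8 and in Cy3 on arrays 2, 4, 5 and 7. The slide had a first row with arrays 1 to 4 and a second with arrays 5 to 8. Every value below is a log2 ratio of RA over vehicle, so that RA-injected rats had more of the transcript where it exceeds 0. The labels do not tell which arrays share RNA, so a gene's standard error (SE) and p value are those of the least favourable of the 24 ways to pair arrays of opposite dye order (limma, fitted across all probes on 4 pair means), and p values measure only the spread between these samples. Called here means an unadjusted p under 0.01, the threshold of the methods, and adjusted p values (Benjamini-Hochberg) cover all 30367 probes.

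In the RA channel 57.4% to 74.6% of the probes exceeded background clearly on an array, and in the vehicle channel 61.2% to 74.5%, by Agilent's own mark. Of the 18 measured marker genes of hypothalamic neurons, 17 were well above background on every array in at least 1 of the channels. The tissue was bulk, so fewer cells of a type and less RNA per cell cannot be told apart. Cell-type markers moved between arrays, the median of 11 choroid plexus markers ranging from -1.35 on array 6 to 0.49 on array 8 and that of 12 fibroblast markers from -0.51 on array 8 to 0.41 on array 4. The median of 11 reactive astrocyte markers was above 0 on every array and ran from 0.52 on array 2 to 2.67 on array 6. Arrays 1 and 2, 3 and 4, 5 and 8, and 6 and 7, each couple of opposite dye order, had close marker values. *Ttr*, a choroid plexus marker, read 1.76 and 1.74, 0.73 and 0.57, 1.21 and 1.37, and -4.48 and -5.11 on these couples in turn. Whether a couple holds the same RNA was not tested. As the methods state a dye-swap, agreement between arrays need not be agreement between rats. The values below are given array by array.

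None of the 40 genes was called (0 higher and 0 lower in limma), against 3.52% of all named genes called higher and 0.792% called lower after RA. At an unadjusted p under 0.05, 7 of the 40 were higher and 0 lower, where 8.48% of all named genes were higher and 4.57% lower, and these 7 were *Col4a1*, *Col5a3*, *Col7a1*, *Itga4*, *Itga5*, *Itgal* and *Itgb7*. The lowest adjusted p among the 40 genes was 0.321. When the pairs were instead treated as a random block in limma, 5 of the 40 were called higher (*Col4a1*, *Col5a3*, *Itga5*, *Itgal* and *Itgb7*) and 0 lower, where 5.41% of all named genes were called higher, and again 0 of the 40 had an adjusted p under 0.05. The ratio was above 0 on all 8 arrays for 2 genes, *Lamc1* and *Itga5*, and below 0 on all 8 for 0 genes, where the shares of all named genes were 4.07% and 1.80%.

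By family, 12 collagen genes had a fitted ratio above 0 and 6 below, with a median of 0.04 and a range of -0.16 to 0.30. Of the laminin genes 3 lay above 0 and 4 below, with a median of -0.03 and a range of -0.12 to 0.09. Of the integrin genes 10 lay above 0 and 5 below, with a median of 0.01 and a range of -0.14 to 0.46. The median over all named genes was -0.0047, and 7219 of these 15159 genes lay above 0. Signals were well above background in RA or in vehicle on all 8 arrays for 15 collagen, 4 laminin and 6 integrin genes, and the brightest probes of *Lamc3*, *Itgae* and *Itgb3* were not well above background on any array in either channel, so that no fold is given for them.

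The dye orders gave close family medians. Collagen genes had a median of 0.03 over the means of the arrays with RA in Cy5 and 0.02 over those with RA in Cy3. The laminin medians were -0.01 and -0.06, and both integrin medians were 0.05. The ratios of the dye orders did not overlap for 2 of the 40 genes (*Lamc1* and *Itga10*), where 16.2% of all named genes had no overlap. *Itga10*, which encodes a collagen-binding subunit of cartilage, is named here because of its values. It read 0.19, 0.14, 0.03 and 0.32 on arrays 1, 3, 6 and 8 and -0.25, -0.05, -0.27 and -0.08 on arrays 2, 4, 5 and 7. These lay above 0 with RA in Cy5 and below 0 with RA in Cy3, so that its fitted ratio was 0.0049 (SE 0.05). The probe was well above background on only 4 arrays in RA and 5 in vehicle. A dimmer *Itga10* probe did not show this split. It read 0.18, -0.02, 0.01 and -0.21 with RA in Cy5 and 0.18, 0.16, 0.03 and -0.13 with RA in Cy3, in the same array order.

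**Figure D1:**
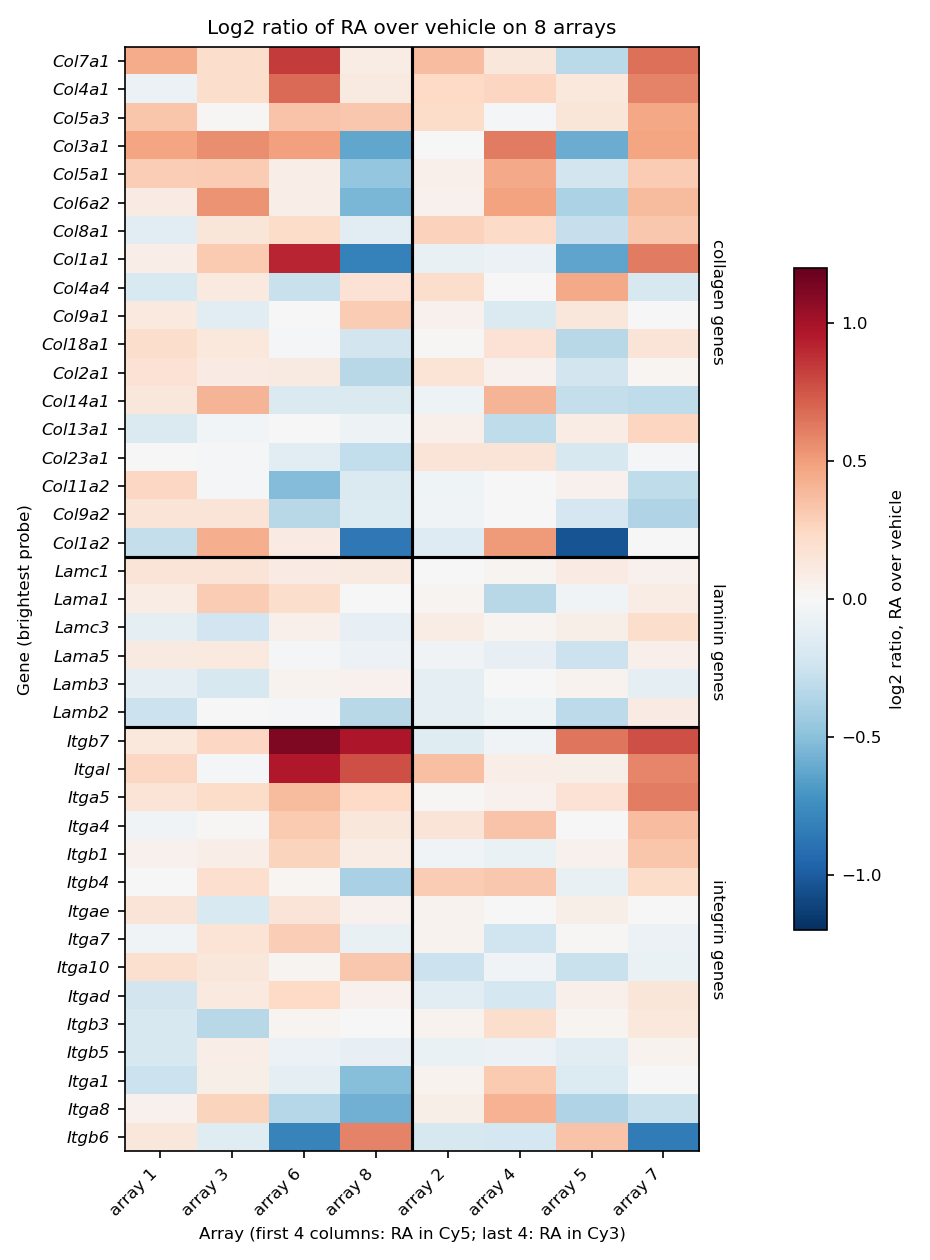
Log2 ratio of RA over vehicle for 39 of the 40 genes (rows, by family and from the highest to the lowest fitted ratio) on each array (columns, RA in Cy5 left of the vertical line and in Cy3 right of it), with red above 0 and blue below 0. Arrays 5 and 8 are blue for *Col1a1*, *Col1a2*, *Col3a1*, *Col5a1* and *Col6a2*, while *Itgb7* and *Itgal* are deepest red on array 6.

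**Figure D2:**
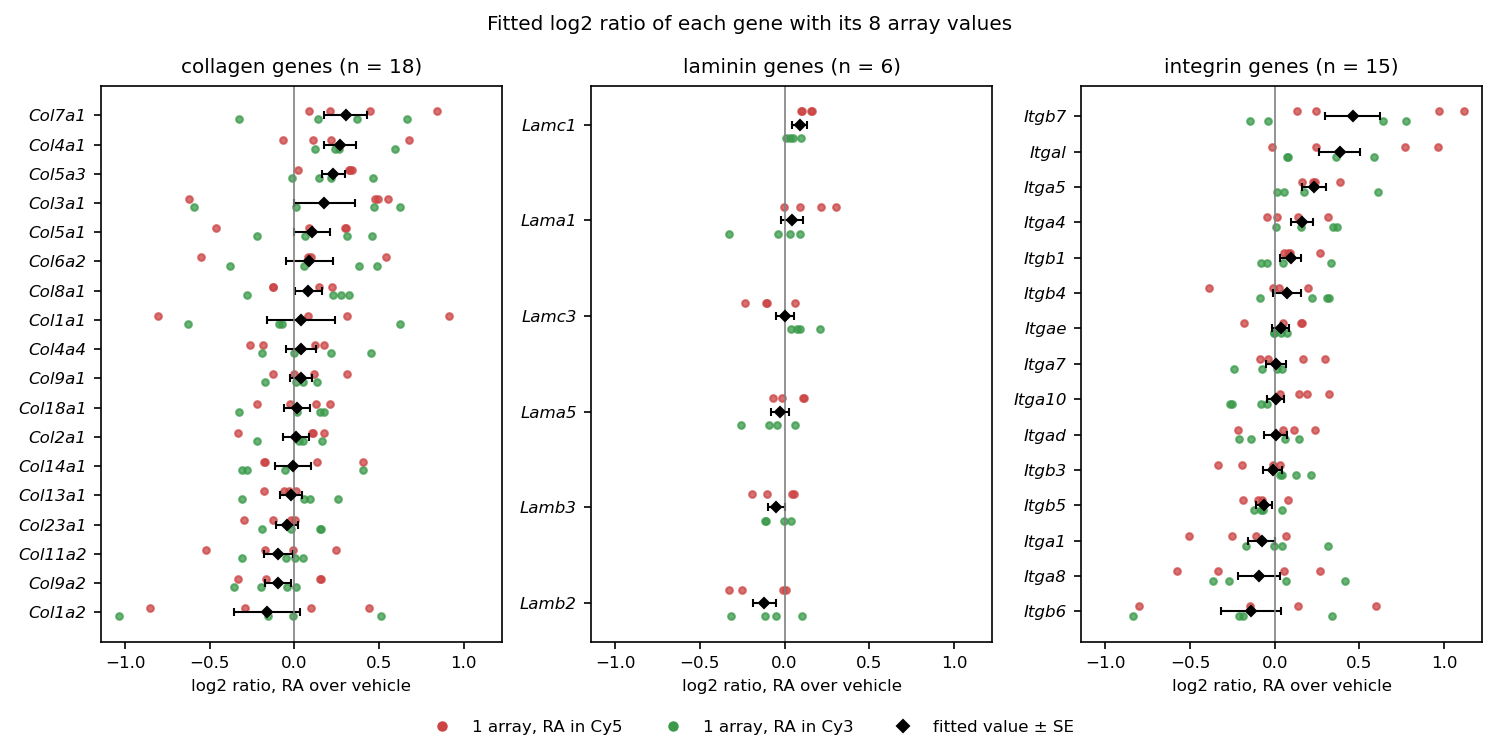
Fitted log2 ratio (diamonds, with bars of 1 SE) for the same 39 collagen, laminin and integrin genes, with the value of each array as a point (red for RA in Cy5, green for RA in Cy3). The widest scatter is seen for *Col1a1* and *Col1a2*, and the ratio and its SE are 0.46 and 0.16 for *Itgb7*.

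The basement membrane and anchoring collagens all had a fitted ratio above 0 (5 of 5 genes), where 7219 of the 15159 named genes did. The highest of them to be well above background on all arrays was *Col4a1*, which encodes a main chain of type IV collagen. *Col7a1* and *Col4a1* had the highest fitted ratios among the collagens and *Itgb7* among the integrins, so the 250 bases before their annotated starts are shown from RefSeq (GRCr8), which held a promoter for 28 of the 40 genes, written 5′ to 3′ on the gene's strand. Capitals mark matches on either strand to the core motif of nuclear receptors, RA receptors among them (AGGTCA), to the GC box (GGGCGG), to the box named for its letters CCAAT and to the TATA box (TATAAA).

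*Col4a1*, chr16:84885347-84885596, plus strand: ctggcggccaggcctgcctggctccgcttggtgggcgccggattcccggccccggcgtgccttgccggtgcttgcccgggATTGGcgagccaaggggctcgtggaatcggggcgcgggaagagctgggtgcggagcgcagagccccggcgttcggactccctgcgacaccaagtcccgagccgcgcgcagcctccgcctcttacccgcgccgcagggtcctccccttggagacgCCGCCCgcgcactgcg

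*Col7a1*, chr8:118483114-118483363, plus strand: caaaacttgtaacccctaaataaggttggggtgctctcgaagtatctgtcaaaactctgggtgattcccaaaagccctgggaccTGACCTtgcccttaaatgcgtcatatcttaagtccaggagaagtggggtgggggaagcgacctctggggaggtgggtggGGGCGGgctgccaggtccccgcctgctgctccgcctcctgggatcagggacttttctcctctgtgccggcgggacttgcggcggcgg

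*Itgb7*, chr7:135239072-135239321, minus strand: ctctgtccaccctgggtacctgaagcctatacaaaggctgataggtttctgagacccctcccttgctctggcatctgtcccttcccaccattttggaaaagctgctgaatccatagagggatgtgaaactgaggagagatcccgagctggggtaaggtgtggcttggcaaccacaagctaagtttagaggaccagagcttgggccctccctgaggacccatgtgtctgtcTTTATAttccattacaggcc

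The *Col4a1* window is 75.2% G and C, overlaps the window of *Col4a2* on the opposite strand by 76 bases, and holds a CCAAT match and a GC box, both on the reverse strand. The *Col7a1* window holds an AGGTCA match on the reverse strand, with 160 bases between it and the start, and a GC box. The *Itgb7* window holds a TATA box match on the reverse strand and none of the other 3 motifs. Among the 28 matched genes, AGGTCA was found for 2 (*Col4a4* and *Col7a1*), where 13.7% of all 27457 promoters held it. A direct repeat of AGGTCA with 5 bases of any kind in between, a classic RA receptor element that contains the single motif, was found for 0 of 28 genes and in 0.0109% of all promoters. GC boxes were found for 13 of 28 genes and in 32.4% of all promoters, TATA boxes for 3 and in 13.1%, and CCAAT boxes for 4 and in 34.3%. A match is a run of letters and not a measured binding site.

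*Col4a1* read -0.07, 0.24, 0.21, 0.26, 0.12, 0.68, 0.60 and 0.11 on arrays 1 to 8. Only array 1 was below 0, and arrays 6 and 7, of opposite dye order, were the highest. The fitted ratio was 0.27 (SE 0.09, adjusted p = 0.364, with an unadjusted limma p of 0.0215), a 1.21-fold higher level, and was 0.15 without arrays 6 and 7. A dimmer probe of the same gene, well above background on 4 arrays in each channel, gave 0.0032 (SE 0.05). *Col7a1*, which encodes the anchoring fibrils that tie epithelia to their stroma and was named after its values were seen, read 0.44, 0.37, 0.21, 0.14, -0.33, 0.84, 0.66 and 0.08. It was below 0 on array 5 alone and had a fitted ratio of 0.30 (SE 0.13, adjusted p = 0.449, with an unadjusted limma p of 0.0458). *Col18a1*, which encodes the basement membrane collagen that yields endostatin, read 0.21, 0.02, 0.13, 0.17, -0.33, -0.03, 0.15 and -0.22, positive on all arrays of the first slide row and on array 7 of the second. Its fitted ratio was 0.01 (SE 0.08). *Col4a4* and *Col8a1* lay at 0.04 and 0.08.

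Several fibrillar collagens differed between arrays within each dye order. *Col1a1* and *Col1a2*, the chains of type I collagen, were both below 0 on arrays 5 and 8, as were *Col3a1* and *Col5a1*. *Col1a1* read 0.08, -0.09, 0.31, -0.07, -0.63, 0.91, 0.62 and -0.81 on arrays 1 to 8. Its highest value was on array 6 and its lowest on array 8, both with RA in Cy5, and the fitted ratio was 0.04 (SE 0.20). A second *Col1a1* probe, well above background on all arrays, gave 0.01 (SE 0.09). That probe read -0.18 on array 5, 0.02 on array 6, 0.32 on array 7 and -0.48 on array 8, a narrower range. *Col1a2* read -0.29, -0.15, 0.44, 0.51, -1.03, 0.10, -0.01 and -0.85, with a fitted ratio of -0.16 (SE 0.20). *Col3a1*, the type III collagen chain, read 0.47, 0.01, 0.55, 0.62, -0.59, 0.49, 0.47 and -0.63, with a fitted ratio of 0.18 (SE 0.18). It stood above 0 on 6 arrays. Its ratio was 0.44 without arrays 8 and 5, the only ones below 0, and 0.07 without arrays 6 and 7. *Col5a1*, a type V chain known to govern fibril width, was picked once its values had been seen. Its values were 0.30, 0.06, 0.30, 0.46, -0.22, 0.08, 0.31 and -0.46, and the fitted ratio was 0.10 (SE 0.11).

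*Col6a2*, a chain of the beaded filaments of type VI collagen, moved like these genes, reading 0.10, 0.05, 0.54, 0.49, -0.38, 0.08, 0.38 and -0.55, with a fitted ratio of 0.09 (SE 0.14). Arrays 5 and 8 were picked as a couple after these values had been seen. Below 0 on both were 11 of the 18 collagen genes, 4 of the 7 laminin genes and 4 of the 15 integrin genes. Of all named genes 27.9% were. Collagen genes above 0 on both arrays numbered 9 for arrays 1 and 2, 11 for arrays 3 and 4 and 10 for arrays 6 and 7. The shares of all named genes there were 23.8%, 24.3% and 30.7%. The median of the 12 measured fibroblast markers, of which 11 were well above background throughout, was -0.43 on array 5 and -0.51 on array 8, and 0.28 and 0.41 on arrays 3 and 4. On arrays 6 and 7 it was -0.17 and -0.14, where *Col1a1* read 0.91 and 0.62. Of these markers 3 had a fitted ratio above 0, decorin (*Dcn*) among them, and 9 below, with a median of -0.08. *Dcn* read -0.30 and -0.49 on arrays 5 and 8 and 0.13 and 0.53 on arrays 3 and 4. The part of the fibroblast markers in the collagen values was not tested.

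*Col5a3*, a type V chain, kept a different pattern. It read 0.33, 0.22, 0.02, -0.01, 0.14, 0.34, 0.46 and 0.32, near 0 on arrays 3 and 4 and higher on all others. Its fitted ratio was 0.23 (SE 0.07, adjusted p = 0.321, with an unadjusted limma p of 0.0120), a 1.17-fold higher level, at or above 0.17 with any couple of arrays left out. *Col11a2*, a type XI chain, read 0.24, -0.05, -0.01, 0.00, 0.05, -0.52, -0.31 and -0.17, with arrays 6 and 7 lowest and a fitted ratio of -0.10 (SE 0.09). *Col9a2*, a fibril-associated type IX chain, read 0.15, -0.05, 0.16, 0.01, -0.20, -0.34, -0.36 and -0.17. All arrays of the second slide row were below 0, and the fitted ratio was -0.10 (SE 0.08). The remaining collagen genes, *Col2a1*, *Col9a1*, *Col14a1*, *Col13a1* and *Col23a1*, had fitted ratios between -0.04 and 0.04.

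Among the laminins, *Lamc1*, which encodes the gamma chain shared by most of them, read 0.16, 0.01, 0.16, 0.03, 0.10, 0.10, 0.05 and 0.10, above 0 on every array. The fitted ratio was 0.09 (SE 0.04, adjusted p = 0.527, with an unadjusted limma p of 0.0794), a 1.06-fold higher level. A dimmer *Lamc1* probe, well above background on 7 arrays in RA and 8 in vehicle, gave 0.04 (SE 0.06). It was below 0 on arrays 1, 3, 5 and 8. *Lamb2*, a beta chain of vascular and synaptic basement membranes, read -0.25, -0.12, 0.01, -0.05, -0.32, -0.01, 0.10 and -0.33, below 0 on 6 arrays. Its fitted ratio of -0.12 (SE 0.07) was the lowest of the family, with a limma p of 0.118. *Lama5*, an alpha chain of mature vessels, read 0.11, -0.04, 0.11, -0.09, -0.26, -0.02, 0.06 and -0.07, with a fitted ratio of -0.03 (SE 0.05). *Lamb3*, known from epithelial laminin, lay at -0.05 (SE 0.05). *Lama1*, well above background on 5 arrays in each channel, lay at 0.04 (SE 0.06). No marker of endothelial cells (12 measured) or of pericytes and smooth muscle (12 measured) was called in either direction.

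Among the integrins, the beta subunit with the most partners, *Itgb1*, read 0.06, -0.05, 0.08, -0.08, 0.05, 0.27, 0.33 and 0.09. Arrays 6 and 7 were again the highest, the fitted ratio was 0.09 (SE 0.06, unadjusted limma p of 0.180) and a second bright probe gave 0.07 (SE 0.06). *Itga5*, which pairs with *Itgb1* as the fibronectin receptor, read 0.16, 0.01, 0.22, 0.05, 0.17, 0.38, 0.61 and 0.24 and was above 0 on all 8 arrays. Its fitted ratio was 0.23 (SE 0.07, adjusted p = 0.329, with an unadjusted limma p of 0.0146). No fold is given, as the probe was dim, well above background on 5 arrays in RA and 1 in vehicle, and the ratio was 1.05 with plain background subtraction. *Itgb5*, the vitronectin-binding partner of the alpha V subunit, read -0.19, -0.08, 0.08, -0.07, -0.13, -0.07, 0.04 and -0.10, below 0 on 6 arrays. The fitted ratio was -0.07 (SE 0.05) and a second probe, also well above background on all arrays, gave -0.18 (SE 0.06, unadjusted limma p of 0.0134).

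The collagen- and laminin-binding subunits lay near 0. *Itga1*, a collagen receptor subunit of mesenchymal cells, read -0.26, 0.04, 0.07, 0.32, -0.17, -0.11, -0.01 and -0.51, with a fitted ratio of -0.08 (SE 0.08). *Itga7* and *Itgb4*, both parts of laminin receptors, lay at 0.01 (SE 0.06) and 0.07 (SE 0.08), and the array values of *Itgb4* ran from -0.39 on array 8 to 0.32 on array 4. *Itga8*, which binds nephronectin and is found in mesenchyme and smooth muscle, read 0.05, 0.07, 0.27, 0.42, -0.36, -0.34, -0.27 and -0.58. It was above 0 on every array of the first slide row and below 0 on every array of the second, with row means of 0.20 and -0.39 and a fitted ratio of -0.09 (SE 0.12), and the difference between the rows was not tested. *Itgb6*, an epithelial subunit that activates latent TGF-beta and that was picked once its values had been seen, read 0.14, -0.19, -0.15, -0.21, 0.34, -0.80, -0.84 and 0.60. Arrays 6 and 7 were the lowest and the fitted ratio was -0.14 (SE 0.18). The probe was dim, well above background on 4 arrays in RA and 6 in vehicle. On arrays 6 and 7 all 11 choroid plexus markers were below 0, with transthyretin (*Ttr*) at -4.48 and -5.11. Without arrays 6 and 7 the *Itgb6* ratio was 0.09, and the part of the choroid plexus markers in it was not tested.

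*Itgb7* and *Itgal*, both leukocyte integrins, had the highest fitted ratios among the 40 genes. All 5 leukocyte integrins lay above 0, as did 7219 of the 15159 named genes. Of these 5, *Itgad* lay near 0 and *Itgae* was not well above background on any array. *Itgb7*, the partner of *Itga4* and *Itgae* in gut-homing and tissue-resident lymphocytes, read 0.13, -0.15, 0.25, -0.04, 0.64, 1.12, 0.77 and 0.97. The slide rows did not overlap, with means of 0.05 in the first and 0.87 in the second, and the difference between them was not tested. The fitted ratio was 0.46 (SE 0.16, adjusted p = 0.373, with an unadjusted limma p of 0.0243), from a probe well above background on 6 arrays in RA and 2 in vehicle, and was 1.29 with plain background subtraction. *Itgal*, the alpha chain of LFA-1, read 0.24, 0.36, -0.02, 0.08, 0.07, 0.96, 0.59 and 0.77, below 0 on array 3 alone. It was well above background on 3 arrays in RA and on 0 in vehicle, so that no fold is given. The fitted ratio was 0.38 (SE 0.12, adjusted p = 0.326, with an unadjusted limma p of 0.0136). With plain background subtraction the *Itgal* ratio was 1.84. *Itga4*, which binds VCAM-1 and fibronectin, read -0.05, 0.16, 0.01, 0.35, 0.01, 0.31, 0.37 and 0.14, with a fitted ratio of 0.16 (SE 0.06, unadjusted limma p of 0.0385). *Itgad*, a phagocyte subunit, read -0.22, -0.14, 0.11, -0.21, 0.06, 0.24, 0.14 and 0.05 and had a fitted ratio of 0.0047 (SE 0.07).

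Of the 15 measured markers of leukocytes other than microglia, 13 had a ratio above 0 and 3 were called higher, with a median of 0.27. *Ptprc* (CD45), which does not set these cells apart from microglia, read from 0.38 to 0.61 in the first slide row and from 1.32 to 1.83 in the second. The T cell gene *Cd3g* read from 0.04 to 0.19 in the first row and from 1.15 to 1.54 in the second, and was well above background on 6 arrays in RA and 2 in vehicle, as *Itgb7* was. The list's median on an array ran from 0.05 on array 3 to 0.51 on arrays 6 and 8. *Itgb2*, the partner of *Itgal* and *Itgad*, which the choice of genes left out, had a fitted ratio of 0.77 (SE 0.20, adjusted p = 0.281, with an unadjusted limma p of 0.00536) and array values from -0.15 on array 2 to 1.92 on array 8. The part of these markers in the integrin ratios was not tested.

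**Figure D3:**
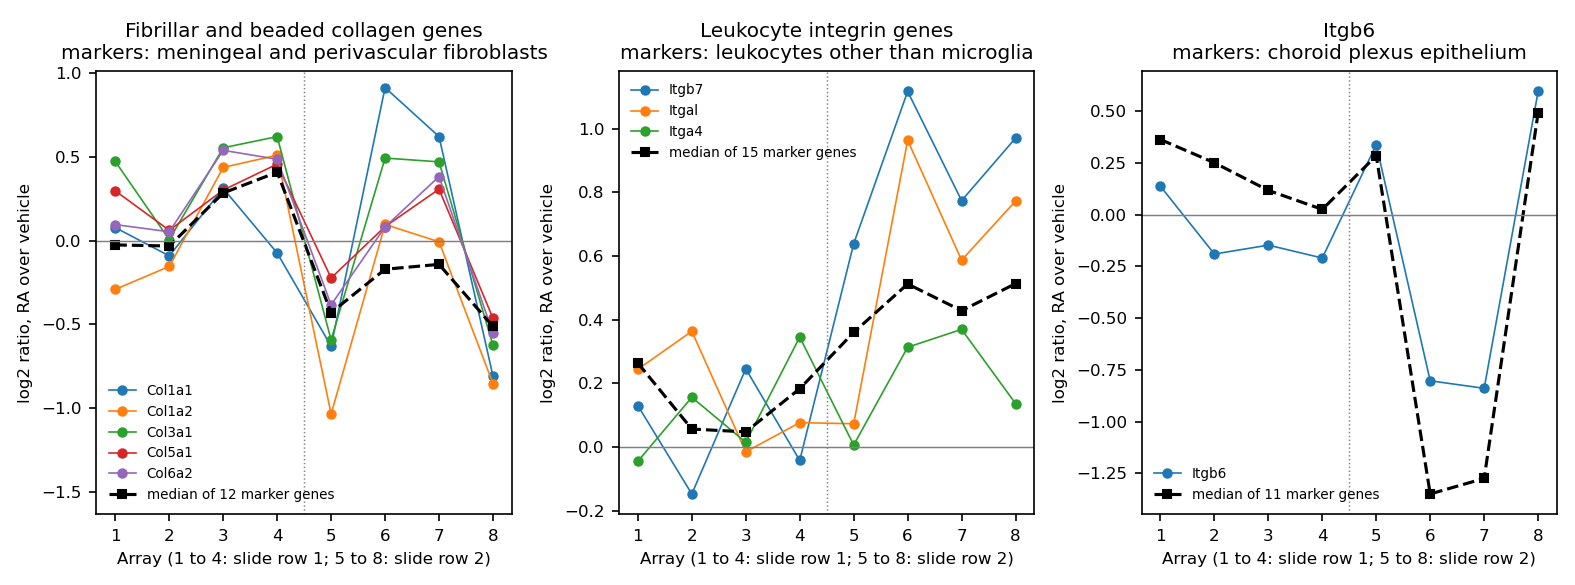
Log2 ratios of RA over vehicle on arrays 1 to 8 for fibrillar and beaded collagen genes, leukocyte integrin genes and *Itgb6* (coloured points), each beside the median of the marker list of a cell type (black squares). Lines only join points for reading, and the dotted line parts the slide rows. The collagen genes drawn and the fibroblast median are below 0 on arrays 5 and 8, where *Col5a3*, not drawn, reads 0.14 and 0.32. On arrays 6 and 7 the fibroblast median is -0.17 and -0.14, while *Col1a1* reads 0.91 and 0.62. *Itgb6*, read by a dim probe, and the choroid plexus median both reach their lowest values on arrays 6 and 7.

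The genes that make, cross-link, bind or signal from these proteins were read from 4 lists. Of 25 measured genes for collagen synthesis and crosslinking (32 listed), 2 were called higher and 1 lower, with a median of 0.06. The called genes were *Colgalt1*, which glycosylates collagen lysines, at 0.27 (SE 0.07, unadjusted limma p of 0.00707), *Bmp1*, which trims procollagen, at 0.20 (SE 0.05, unadjusted limma p of 0.00563), and *P4ha3*, a prolyl hydroxylase subunit well above background on at most 2 arrays in a channel, at -0.19 (SE 0.05, unadjusted limma p of 0.00458). *Bmp1* was above 0 on all 8 arrays, from 0.05 on array 8 to 0.40 on array 7. *Colgalt1* was also above 0 on all 8, from 0.06 on array 4 to 0.62 on array 6. Of 14 measured basement membrane genes outside the families (23 listed), 1 was called higher and 0 lower, with a median of -0.02. It was *Efemp2*, an elastic fibre protein, at 0.38 (SE 0.07, adjusted p = 0.222, with an unadjusted limma p of 0.000534).

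Of 28 measured integrin ligands outside the families (31 listed), 5 were called higher and 0 lower, with a median of 0.06. *Spp1* (osteopontin) read 1.61, 1.57, 0.36, 0.35, 3.04, 3.73, 3.55 and 3.37 and had a fitted ratio of 2.20 (SE 0.49, unadjusted limma p of 0.00249). The lowest values were on arrays 3 and 4 and the second slide row was above 3 throughout. *Icam1*, the counter-receptor of LFA-1, lay at 0.65 (SE 0.12, unadjusted limma p of 0.000885) and *Tgfbi* at 0.61 (SE 0.13, unadjusted limma p of 0.00187), and both were above 0 on all 8 arrays. The other called ligands were *Tnc* (tenascin C) at 0.38 and *Fn1* (fibronectin) at 0.50, named after their values were seen. Of 32 measured integrin adaptor and signalling genes (39 listed), 4 were called higher and 0 lower, with a median of 0.03. *Fermt3*, the kindlin of blood cells, lay at 0.52 (SE 0.12, unadjusted limma p of 0.00267), *Rap1b*, a GTPase that activates integrins, at 0.39 (SE 0.10, unadjusted limma p of 0.00450) and *Parvg*, the parvin of blood cells, at 0.35 (SE 0.09, unadjusted limma p of 0.00505). Of the 11 measured markers of reactive astrocytes, 10 were called higher, with a median of 1.40 (0.69 in the first slide row and 2.20 in the second), and of the 11 measured markers of microglia 4 were called higher and 1 lower, with a median of 0.08. The part of these markers in the ratios of the ligands and adaptors was not tested. All adjusted p values in the 4 lists were 0.222 or above, and the background shares of 3.52% and 0.792% hold for their counts too.

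**Figure D4:**
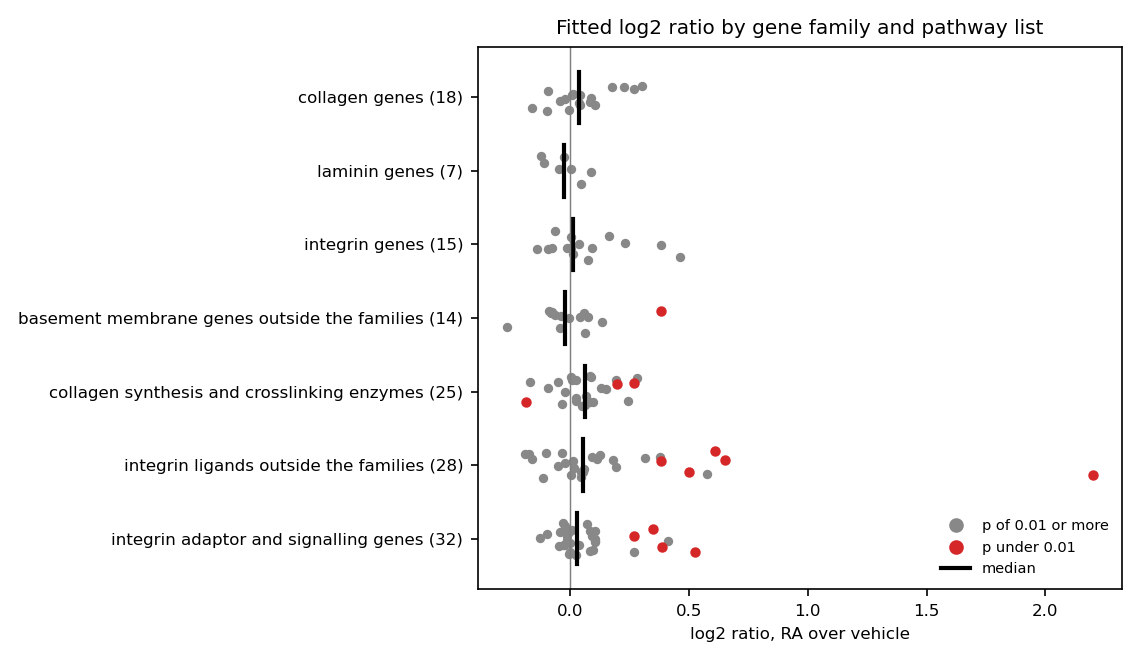
Fitted log2 ratio of RA over vehicle (horizontal axis) for each measured gene of the 3 families and the 4 pathway lists, with the number of genes in brackets, the median as a black bar and genes with p under 0.01 in red. No collagen, laminin or integrin gene is red, and *Spp1*, at 2.20, is the ligand farthest to the right.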

How the data were processed

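RNA of 4 RA-injected and 4 vehicle-injected rats was compared on 8 two-colour arrays. The authors deposited, per spot, Cy3 and Cy5 intensity on a linear scale and Agilent's log10 ratio of Cy5 over Cy3, and for the series a table of normalised log2 ratios, whose direction of RA over vehicle was read from the arrays. The methods state limma with loess normalisation, means over identical probes and the dye-swap as a block.

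The present values come from limma 3.58.1 in R 4.3.3. Median signals were corrected by normexp (offset 50), controls dropped, outlier spots (0.913% to 2.42% per array) left out, loess applied within arrays and spots averaged per probe. Tests used 4 pair means, with the largest p over 24 pairings. Probes were named through accessions matched to RefSeq (18006 of 30367 probes), the brightest probe standing for a gene. Well above background means that Agilent marked a share of 0.5 or more of a probe's spots so. Precision is limited by how many arrays there are. Scripts were tested on simulated data.

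Named are, per family, the 3 largest rises and 3 largest falls among genes well above background on every array in at least 1 channel, a list of genes by role, any called gene (0), and up to 3 genes per pathway list. The members and lists were chosen with earlier results of these data known. Alternatives were other background corrections, scalings, filters, dye orders, slide rows, blocks and 16 couples of arrays left out. The values of 1 laminin gene enter the counts and medians but are not reported here.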

Additional observations from a re-analysis of the deposited data

Results flagged for a closer look

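With 43 measures (the 40 genes and 3 family medians) read in each dye order, 86 groups of 4 arrays were searched for a value far from its group, and 6 were found, while chance gives about 1 in 20. *Col3a1* read -0.63 on array 8, against 0.47 to 0.55 on the other arrays with RA in Cy5. *Col2a1*, the type II collagen chain, read -0.33 on array 8, against 0.10 to 0.18. *Col8a1* read -0.28 on array 5, against 0.23 to 0.32 on the other arrays with RA in Cy3. *Col5a3* read 0.018 on array 3, against 0.32 to 0.34. *Itgb1* read 0.27 on array 6, against 0.06 to 0.09. The median of the laminin genes was 0.060 on array 7, against -0.05 to -0.04. With its brightest probe, which was dim, *Itga10* moved in opposite directions in the dye orders. Its mean was higher by 0.33 on the log2 scale with RA in Cy5 than with RA in Cy3, and that difference was not tested.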

How the results depend on the processing

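Of the 40 genes, 0 were called higher after RA in the fit described above. Among the 18 alternatives that leave out no couple of arrays, scaling between arrays called 3 (*Col5a3*, *Itga5* and *Itgal*, with 4.17% of all named genes called higher). *Col4a1*, *Col5a3*, *Itga5*, *Itgal* and *Itgb7* made up the 5 called with pairs as a random block (5.41% of all named genes), with 8 independent arrays (7.03%) and with slide row as a block (8.68%). The fits with 8 independent arrays and with slide row as a block have no term for shared RNA, so their p values can be too small. The smallest p over the pairings called 7 (9.76%), RA in Cy5 alone 3 (5.64%) and RA in Cy3 alone 1 (4.69%). Slide row 1 alone called 3 (*Col3a1*, *Col5a1* and *Col7a1*, 2.41%) and slide row 2 alone 3 (*Col5a3*, *Itgal* and *Itgb7*, 5.57%). The other 9 gave 0. Leaving out a couple of arrays of opposite dye order gave 0 to 3. The 3 genes were *Col3a1*, *Col5a1* and *Col7a1* without arrays 8 and 5, *Col5a3*, *Itgal* and *Itgb7* without arrays 3 and 2, and *Col5a3*, *Col7a1* and *Itgal* without arrays 3 and 5. The number called lower was 0 in all alternatives but slide row 2 alone, which called 1 (*Itga8*, with 0.864% of all named genes called lower).

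The laminin median was -0.13 with Agilent's log ratio, and the integrin median was 0.10 with plain background subtraction. The collagen median, 0.04 in the fit described above, was 0.13 in slide row 1 and -0.07 in slide row 2, and ran from -0.018 without arrays 3 and 7 to 0.11 without arrays 8 and 5. The causes were not tested. *Col4a1* and *Col5a3* stayed above 0 in all 34 alternatives, from 0.14 to 0.38 and from 0.14 to 0.32. In the 33 that keep their probes, *Itga5* ran from 0.11 to 1.05, *Itgal* from 0.17 to 1.84 and *Itgb7* from 0.05 to 1.29, lowest in slide row 1 alone and highest with plain background subtraction.

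An adjusted p under 0.05 was reached by 0 of the 40 genes in the fit described above, by 4 with slide row as a block (8.57% of all named genes), by 1 (*Itgb7*) in slide row 2 alone (2.92%) and by 7 with the smallest p (11.5%). Correlations between arrays of a pair ran from -0.22 to 0.37 over the pairings. Dim probes (15 of the 40 genes not well above background on all arrays in a channel) limit the ratios of *Itga5*, *Itgal*, *Itgb7*, *Itga10* and *Itgb6*.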
